A study of Mus musculus with 11 samples.

Results

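The data set described here is the level of 10 cytokine receptor genes, Il7r, Il2ra, Il2rb, Il2rg, Il21r, Il4ra, Il6ra, Il6st, Il18r1 and Ifngr1, in CD8 T cells sorted from mouse tumors. The genes were chosen by name, because they encode receptor chains that CD8 T cells are known to use, and each was found as 1 row among the 32469 gene symbols of the deposited count table. The 11 libraries were each made from 1 mouse, an 8-week-old wild-type female of the C57BL/6 strain that carried tumors of Lewis lung carcinoma (LLC), a cell line from a lung tumor of the same strain, under the skin of both flanks. Of these mice, 5 were untreated. The other 6, labelled aLAG3, received 200 µg of anti-LAG-3 (clone C9B7W), an antibody that blocks the inhibitory receptor LAG-3, into the peritoneum on days 14 and 16 of tumor growth. No isotype control antibody for the untreated mice is named in the sources used here. The tumors of a mouse were removed one after the other, the first on day 14. For the second the sources give different days, 18 and 21. The sorted cells, which the labels call T cells, were CD8+PD-1+Ly108+TIM-3- within a gate narrower than these markers give, a population known as precursor exhausted T cells, which keep the ability to divide and give rise to the more terminally exhausted cells of a tumor. The comparison asks whether the levels of receptor transcripts in these cells differ after LAG-3 blockade.

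Cytokine receptors of this kind are built from shared and private chains. Il2rg encodes the common gamma chain, which pairs with the private chains for IL-7 (Il7r), IL-21 (Il21r) and IL-4 (Il4ra), and with Il2rb and Il2ra for IL-2. Il2rb is also used for IL-15. IL-7 supports the survival of naive and memory T cells, IL-2 and IL-15 drive division and effector functions, and IL-21 sustains CD8 T cells in chronic infection. Il6st encodes gp130, the signaling chain that IL-6 and its relatives share, Il6ra the chain that binds IL-6, Il18r1 the chain that binds IL-18, and Ifngr1 the chain that binds interferon gamma. Most of these receptors signal through JAK kinases and STAT transcription factors. The IL-18 receptor instead uses the adaptor MyD88 and IRAK kinases.

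Untreated libraries held 317449 to 1271063 counts and anti-LAG-3 libraries 313524 to 1901374. Depth went with the primer barcode of a library, with a median total of 1141450.5 counts for the 6 libraries of barcode 9, 411796.5 for the 4 of barcode 8, and 317449 for the 1 of barcode 10, untreated replicate 2. Levels are given in CPM, counts per 1000000 counts on the genes that passed the filter on low counts, scaled by TMM factors of 0.985 to 1.01. The sorted identity was seen in the reads, since Cd8a had 1191 ± 31.2 CPM (n = 5, SD) without treatment against 1206 ± 90.6 (n = 6, SD) after LAG-3 blockade, and Pdcd1, which encodes PD-1, had 716 ± 71.8 and 605 ± 101 CPM. Slamf6, which encodes Ly108, had 111 ± 10.6 and 97.5 ± 14.2 CPM, whereas Havcr2 (TIM-3), a marker selected against, had 6.74 ± 7.41 CPM in untreated mice and 3.48 ± 2.27 CPM in anti-LAG-3 mice. Across all 11 libraries there were 4 reads on Cd4, 2 on Foxp3 and 1 on Ncr1, the defining markers of CD4 T cells, regulatory T cells and NK cells. Of the other markers with the most reads in their lists, Cd79b and Klrb1c had 23 and 13 reads in all, while Tnfrsf4 and Pecam1, which T cells can also express, had 319 ± 26.8 and 179 ± 23.8 CPM in untreated mice. The summed level of 9 myeloid marker genes, of which Cd68 had the most reads and none was at 0 in every library, was 23.1 to 56.3 CPM in the untreated libraries and 24.8 to 162 CPM in the anti-LAG-3 libraries, with medians of 35.9 and 63.1 CPM. The sums of anti-LAG-3 replicates 7, 8 and 10 (85.7, 70.8 and 162 CPM) were above every untreated library, and 8 of the 9 genes had a higher mean in anti-LAG-3 mice, though none had enough reads to be tested. The sum was low beside the CD8 and CD3 genes, whose sum was at least 4808 CPM in every library. The difference in Pdcd1, a log2 change of -0.24 (SE 0.097), had an unadjusted p of 0.0214 and an adjusted p of 0.999 in edgeR, and that in Slamf6, a log2 change of -0.17 (SE 0.13), an unadjusted p of 0.184. The mean levels of all 3 of these sorting markers were lower in anti-LAG-3 mice, and their part in the receptor results was not tested. The library titles carry 1 more number, of unstated meaning, which has 8 values and is shared by untreated replicates 2 and 3 and anti-LAG-3 replicate 10, and by untreated replicates 4 and 5. With this number as a covariate, an alternative chosen after the data were seen, the group difference rests on the 3 libraries of the value that holds both groups, only 1 of them anti-LAG-3, and on 2 residual degrees of freedom. In RNA from many cells, fewer cells that express a gene and less RNA of it per cell cannot be told apart.

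The 10 receptor genes covered a wide range of levels, and the order was led by the shared chain and the interferon gamma receptor. Per kb of the longest coding transcript, over all 11 libraries, Il2rg had 388 ± 37.9 CPM per kb, above 96.1% of the 6035 tested genes with a transcript length, and Ifngr1 had 288 ± 35.0, above 95.1%. Il2rb followed with 98.5 ± 15.1 CPM per kb, then Il21r with 84.5 ± 14.8, Il7r with 69.3 ± 11.2 and Il18r1 with 59.5 ± 10.1. These were all well above the median tested gene, which had 18.5 CPM per kb. Il2ra, the chain that gives the IL-2 receptor its high affinity, had 22.5 ± 4.78 CPM per kb, close to that median, and Il4ra had 9.43 ± 2.08, above only 26.7% of tested genes. The IL-6 receptor chains lay lowest, with 1.78 ± 0.921 CPM per kb for Il6st and 0.493 ± 0.481 for Il6ra.

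The order had clear steps and a flat middle. Il2rg was above Ifngr1 within each of the 11 libraries, although the ranges overlapped across libraries, and Ifngr1 was above Il2rb with no overlap. In the middle, Il2rb was above Il21r in 9 of 11 libraries, Il21r above Il7r in 9 of 11 and Il7r above Il18r1 in 8 of 11, and neighbors overlapped in range, so these 4 genes could not be put in a firm order. Il18r1, Il2ra, Il4ra and Il6st then stepped down without overlap between neighbors. Transcript length stood in for the part of the transcript that was read, which the sources used here do not give, so these levels compare genes only roughly.

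**Figure D1:**
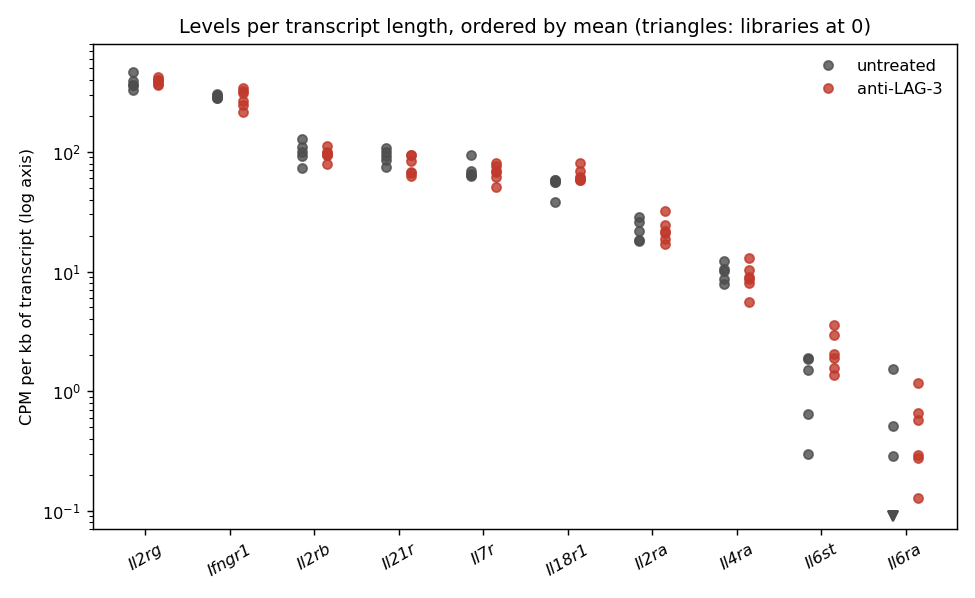
Level of each receptor gene per kb of its longest coding transcript (vertical axis, log scale, CPM per kb), with genes ordered by their mean over all 11 libraries. Each point is a library, grey for untreated and red for anti-LAG-3, and the 2 untreated libraries with no Il6ra read overlap as a triangle at the bottom edge. The levels fell from 388 CPM per kb for Il2rg to 0.493 for Il6ra, with Il2rb, Il21r, Il7r and Il18r1 overlapping in the middle.

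None of the receptor genes passed the test for a difference between anti-LAG-3 and untreated mice. Across the table, 6949 genes passed the filter on low counts and were tested, and 0 of them (0%) passed an adjusted p of 0.05 (edgeR, quasi-likelihood, Benjamini-Hochberg). The likelihood ratio test, DESeq2 and limma-voom also called 0 genes at an adjusted p of 0.05, with 307, 163 and 317 genes at an unadjusted p under 0.05. Without adjustment, 259 genes (3.73%) had a p under 0.05, of which 121 (1.74%) were higher and 138 (1.99%) lower in anti-LAG-3 mice. Of the 10 receptor genes, 8 were tested, and 2 of these, Il18r1 and Il21r, were among the 259. Il6ra and Il6st had too few reads to be tested, with 0 and 2 libraries above the filter's level of 17.7 CPM of total counts. The groups overlapped for all 10 receptor genes, while they did not overlap for 33 tested genes (0.475%).

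Among the 8 tested receptor genes the log2 fold change was above 0 for 2, Il18r1 and Il2rg, and below 0 for 6, beside 51.1% above and 48.9% below 0 among all tested genes. Their median log2 fold change was -0.026, beside 0.0045 over all tested genes, and the median size regardless of sign was 0.051, beside 0.11. The 95% intervals of the 8 fold changes together spanned 0.674-fold to 1.39-fold, so that for each of the 8 a change beyond 1.5-fold in either direction lay outside its interval. The adjusted p was 0.999 for each of the 8 in the quasi-likelihood test.

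**Figure D2:**
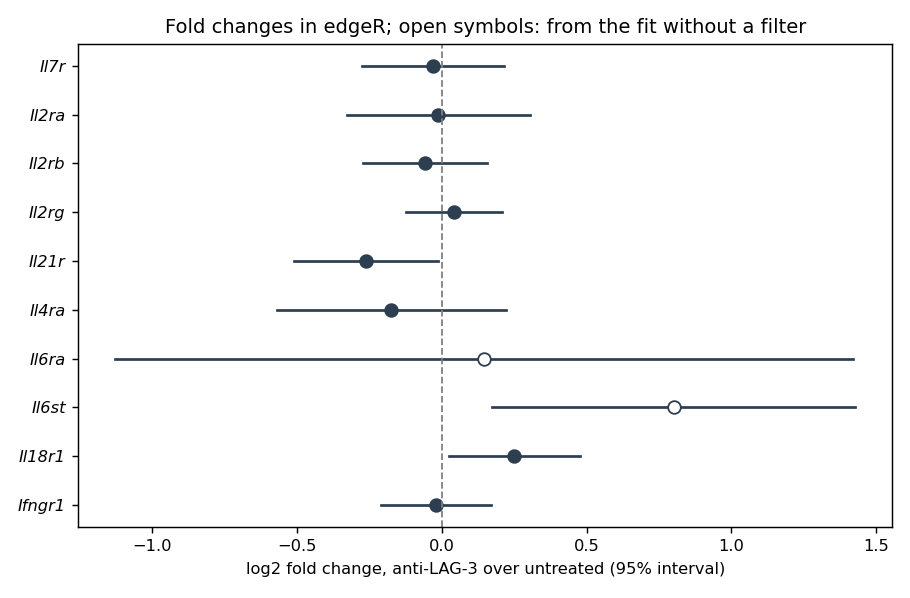
Log2 fold change of each receptor gene from untreated to anti-LAG-3 (horizontal axis) with its 95% interval, from edgeR's quasi-likelihood fit over all tested genes. Filled symbols are the 8 tested genes, and open symbols are Il6ra and Il6st, taken from the fit without a filter on low counts. The intervals of Il18r1 (0.024 to 0.48), Il21r (-0.51 to -0.012) and Il6st (0.17 to 1.43) do not reach 0, before any adjustment for the number of genes tested.

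Il18r1 was the tested receptor gene with the smallest p. It encodes the ligand-binding chain of the IL-18 receptor and lies on chromosome 1 of GRCm38 from 40465552 to 40500854 (plus strand, 11 exons in its longest coding transcript). In untreated replicates 1 to 5 its level was 232, 244, 240, 159 and 233 CPM, and in anti-LAG-3 mice it spanned 241 to 335 CPM (median 253). The anti-LAG-3 libraries lay at or above the untreated ones, the groups overlapping only in that untreated replicate 2 exceeded anti-LAG-3 replicates 8 and 9 (241 and 243 CPM), while untreated replicate 4 stood well below the others of its group. The means were 221 ± 35.4 CPM (n = 5, SD) against 269 ± 36.5 (n = 6, SD), which gave a log2 change of 0.25 (SE 0.11, 95% interval 0.024 to 0.48). The unadjusted p was 0.0314 in edgeR and the adjusted p 0.999.

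The unadjusted p of Il18r1 depended on single libraries. Without untreated replicate 4, which had 62 reads, the log2 fold change was 0.17 (unadjusted p = 0.118 in edgeR). It was 0.22 without anti-LAG-3 replicate 6 (unadjusted p = 0.0757 in edgeR) and 0.20 without anti-LAG-3 replicate 10 (unadjusted p = 0.0766 in edgeR). Replicate 10 had the highest Il18r1 level and also the highest myeloid marker sum. In anti-LAG-3 replicates 6 to 11 Il18r1 was 288, 251, 241, 243, 335 and 255 CPM. The myeloid marker sum in the same libraries was 47.5, 85.7, 70.8, 24.8, 162 and 55.5 CPM. The part of myeloid RNA in the difference was not tested. Untreated replicates 2 and 3 (244 and 240 CPM) share the title number of replicate 10 (335 CPM), and with that number as a covariate the log2 fold change was 0.47 (unadjusted p = 0.0415 in edgeR, adjusted p = 0.681). Within primer barcode 9, with 3 libraries in each group, the untreated libraries ran from 232 to 240 CPM and the anti-LAG-3 libraries from 243 to 288 CPM, and the log2 fold change was 0.15 (unadjusted p = 0.196 in edgeR).

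The genes around Il18r1 in the genome and in its pathway can be set beside it. Il18rap, which encodes the signaling partner chain of the IL-18 receptor, starts 14.5 kb downstream of Il18r1 and had 298 ± 26.1 CPM (n = 5, SD) without treatment against 327 ± 69.7 (n = 6, SD) after LAG-3 blockade, which gave a log2 change of 0.090 (SE 0.11). Il1rl1, which encodes the IL-33 receptor and ends 136 bases upstream of Il18r1 on the same strand, had only 2 to 10 reads in a library and was not tested. Of the 5 adaptor genes of the IL-18 receptor (Myd88, Irak1, Irak2, Irak4 and Traf6), 3 had a log2 fold change above 0 and 2 below 0, between -0.31 for Irak4 and 0.13 for Irak2, and none had an unadjusted p under 0.05. Irak1 gave a log2 change of -0.096 (SE 0.20). Irak2 was 0.084 without untreated replicate 4 and 0.067 within primer barcode 9.

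Il21r had the largest difference among the lower receptor genes. It encodes the private chain of the IL-21 receptor and lies on chromosome 7 from 125603429 to 125633570 (plus strand, 9 exons), 24.0 kb downstream of Il4ra on the same strand. In untreated replicates 1 to 5 its level was 270, 188, 231, 248 and 212 CPM. In anti-LAG-3 mice it spanned 156 to 236 CPM (median 191). Replicates 7 and 8 of the anti-LAG-3 group (234 and 236 CPM) lay among the untreated libraries, replicate 10 (210 CPM) near their lower end, and replicates 6, 9 and 11 (165, 156 and 171 CPM) below all of them. The means were 230 ± 31.8 CPM (n = 5, SD) against 195 ± 35.6 (n = 6, SD), which gave a log2 change of -0.26 (SE 0.12, 95% interval -0.51 to -0.012). The unadjusted p was 0.0407 in edgeR and the adjusted p 0.999.

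The Il21r difference kept its direction in each of the 9 alternative settings, with log2 fold changes of -0.35 to -0.25, and when each library was left out in turn (-0.36 to -0.18). The unadjusted p was above 0.05 in the likelihood ratio test (0.0561) and in DESeq2 (0.0574), and without any 1 of 6 libraries, which were untreated replicates 1, 3 and 4 and anti-LAG-3 replicates 6, 9 and 11 (0.0588 to 0.172). Among the libraries that share a title number, untreated replicates 2 and 3 had 188 and 231 CPM and anti-LAG-3 replicate 10 had 210 CPM, and with that number as a covariate the log2 fold change was -0.045 (unadjusted p = 0.855 in edgeR). Within primer barcode 9 the untreated libraries ran from 212 to 270 CPM and the anti-LAG-3 libraries from 156 to 234 CPM, which gave a log2 change of -0.35 (SE 0.14, unadjusted p = 0.0254 in edgeR).

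The sequence just before the start of these 2 genes is shown because they were the tested receptor genes with the smallest p. The sequences are from RefSeq (GRCm38.p6, plus strand, 5′ to 3′) and run up to the base before the first annotated start. For Il18r1 it is chr1:40465416-40465551, which begins at the end of Il1rl1 upstream, and for Il21r it is chr7:125603179-125603428. The capitals mark ACTTCC in Il18r1, the reverse complement of the ETS core GGAAGT, at 89 to 84 bases before the start. In Il21r they mark TGTTTACCACA, in which the reverse complements of the FOXO motif GTAAACA (38 to 32 bases before the start) and of the RUNX motif TGTGGT (33 to 28 bases before the start) overlap.
Il18r1: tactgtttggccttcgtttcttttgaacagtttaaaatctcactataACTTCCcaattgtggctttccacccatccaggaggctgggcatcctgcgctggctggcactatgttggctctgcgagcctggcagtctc
Il21r: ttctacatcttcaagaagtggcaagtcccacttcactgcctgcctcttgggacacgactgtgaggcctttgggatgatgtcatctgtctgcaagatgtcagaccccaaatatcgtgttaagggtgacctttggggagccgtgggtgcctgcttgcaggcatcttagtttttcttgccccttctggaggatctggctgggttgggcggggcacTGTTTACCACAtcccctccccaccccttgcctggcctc
Promoter sequences were found for 9 of the 10 genes, with 11 annotated starts in all (Il2rb was not among them). In the 250 bases before a start, on both strands, GGAAGT was present in 5 of the 11 windows, for 4 genes (Il18r1, Il2ra, Il6ra and Il7r). The Il18r1 windows with this motif overlap and hold the same match. TGTGGT was present in 2 windows (Il21r and Il2rg) and GTAAACA in 1 (Il21r). Of all 32851 annotated windows of this length, 19.7%, 14.0% and 3.17% hold these motifs. The STAT motif TTCNNNGAA was present in 2 of the 11 windows, for Il7r and, before a start downstream of the first, for Il18r1, and in 7.02% of all windows. These matches are letters in a window, not measured binding sites.

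**Figure D3:**
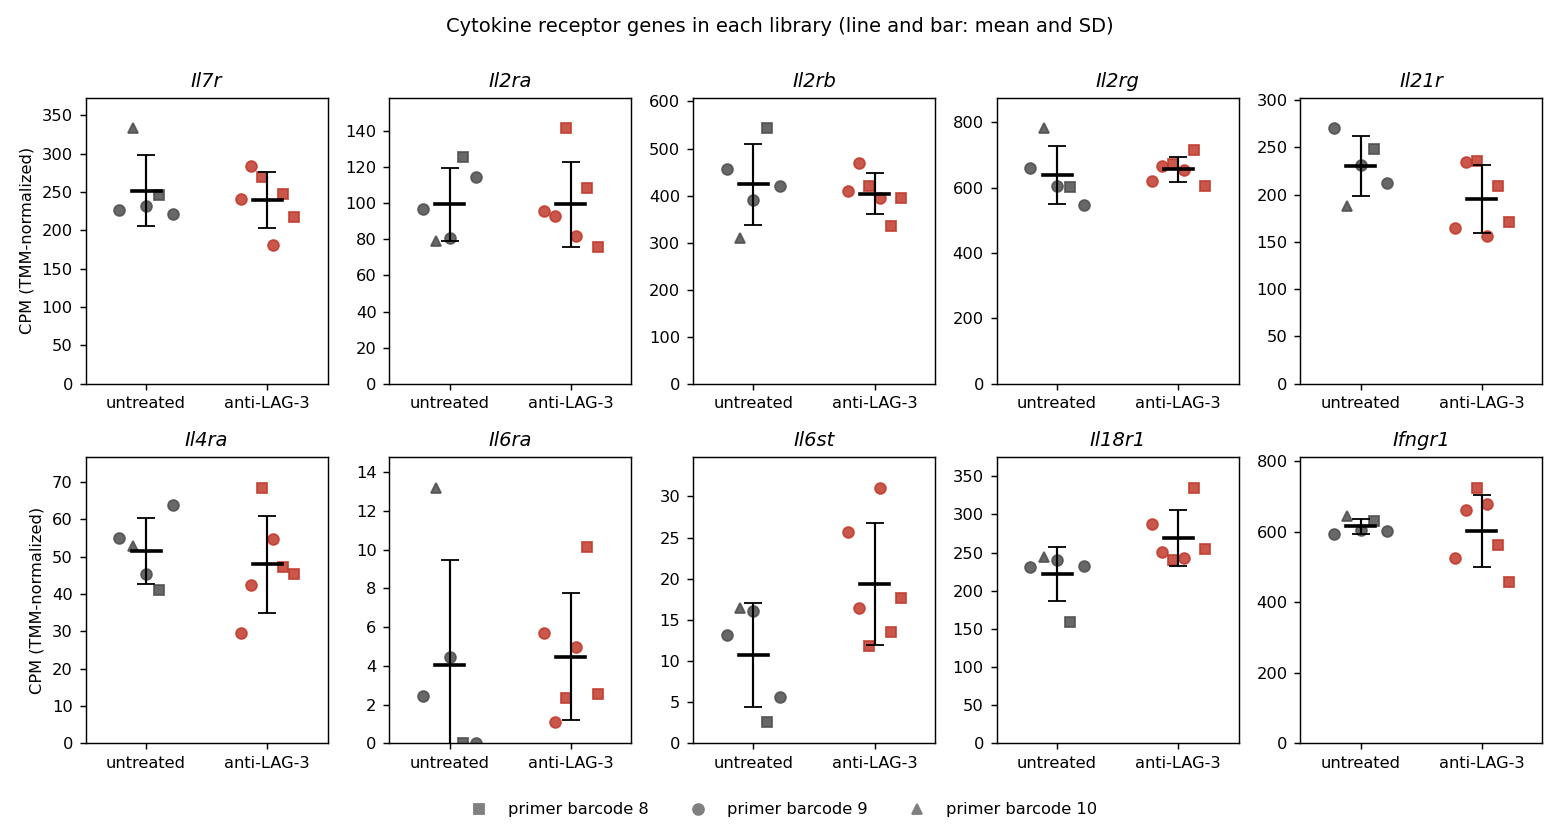
Level of each receptor gene (vertical axis, CPM from 0) in every library, grey for untreated and red for anti-LAG-3, with the mean and SD of each group in black and the primer barcode given by the symbol shape. The groups overlap in every panel, as for Il18r1 (159 to 244 CPM untreated, 241 to 335 CPM anti-LAG-3).

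Il7r, the private chain of the IL-7 receptor, which is retained on memory-type T cells and lost on many effector cells, differed in mean by less than the SD of either group. It lies on chromosome 15 from 9505788 to 9530176 (minus strand). In untreated replicates 1 to 5 it had 227, 333, 232, 246 and 221 CPM, and in anti-LAG-3 mice it spanned 181 to 283 CPM (median 244). Untreated replicate 2 stood above all other libraries and the other 4 untreated libraries sat within a narrow band inside the anti-LAG-3 range. The means were 252 ± 46.2 and 240 ± 36.8 CPM (n = 5 and n = 6, SD), which gave a log2 change of -0.031 (SE 0.12, 95% interval -0.27 to 0.21). The sign turned to 0.056 without untreated replicate 2, which lies inside the same interval.

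The means of Il2ra and Il2rb, the 2 other chains of the IL-2 receptor, differed between the groups by less than the SD of either group. Il2ra (CD25, chromosome 2 from 11642807 to 11693193, plus strand) had 96.9, 79.1, 81.0, 125 and 114 CPM in untreated replicates 1 to 5 and 75.6 to 142 CPM in anti-LAG-3 mice (median 94.4). Its ranges nearly coincided, and the means were 99.4 ± 20.4 and 99.3 ± 23.6 CPM (n = 5 and n = 6, SD), which gave a log2 change of -0.012 (SE 0.15, 95% interval -0.33 to 0.30). With a library left out the Il2ra log2 fold change ran from -0.12 to 0.063. It was 0.43 with the title number as a covariate, which lies outside that interval. Il2rb (CD122, chromosome 15 from 78479256 to 78495271, minus strand) had 457, 310, 390, 543 and 420 CPM in untreated replicates 1 to 5 and 335 to 470 CPM in anti-LAG-3 mice (median 402). The untreated libraries enclosed the anti-LAG-3 ones on both sides. The means were 424 ± 85.9 and 404 ± 43.7 CPM (n = 5 and n = 6, SD), which gave a log2 change of -0.059 (SE 0.10, 95% interval -0.27 to 0.16). Il15ra, the private chain of the IL-15 receptor, which starts 12.1 kb from Il2ra, had 34.7 ± 10.1 CPM (n = 5, SD) without treatment against 29.0 ± 6.11 (n = 6, SD) after LAG-3 blockade, which gave a log2 change of -0.22 (SE 0.22).

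Il2rg, the common gamma chain, was the most precisely measured receptor gene. It lies on chromosome X from 101264378 to 101268255 (minus strand) and had 659, 781, 606, 602 and 546 CPM in untreated replicates 1 to 5. In anti-LAG-3 mice it spanned 605 to 714 CPM (median 661). Untreated libraries again lay on both sides of the anti-LAG-3 range. The means were 639 ± 89.1 and 655 ± 38.997 CPM (n = 5 and n = 6, SD), which gave a log2 change of 0.042 (SE 0.081, 95% interval -0.12 to 0.21). The Il2rg gene overlaps the gene Gm20489 on the same strand, and 27.5% of the 50-base stretches of its transcripts also occur there. The deposited table had 224 reads on Gm20489 in all 11 libraries together, beside 211 or more on Il2rg in each library, and how shared reads were counted is not stated, so the Il2rg level is uncertain to that extent.

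The balance of chains within a library, which does not depend on library scaling, also differed between the groups by less than the SD of either with all 11 libraries. The log2 ratio of Il7r to Il2rb was -0.74 ± 0.49 (n = 5, SD) in untreated and -0.75 ± 0.23 (n = 6, SD) in anti-LAG-3 mice. Untreated replicate 2 was the library in which Il7r exceeded Il2rb (log2 ratio 0.10), and the other 10 libraries ran from -1.13 to -0.44. The difference between the group means was -0.016 with all libraries and 0.19 without untreated replicate 2. The log2 ratio of Il2ra to Il2rb was -2.06 ± 0.17 and -2.02 ± 0.35 (n = 5 and n = 6, SD), and in both groups the CD25 transcript was the scarcer one in every library. The difference between the means of this ratio was 0.045, and -0.10 within primer barcode 9.

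Il4ra, which encodes the IL-4 receptor chain and lies on chromosome 7 from 125552120 to 125579474 (plus strand), was the lowest of the tested receptor genes and the least precise. It had 55.0, 52.7, 45.4, 40.98 and 63.8 CPM in untreated replicates 1 to 5, from 16 to 67 reads, and 29.4 to 68.4 CPM in anti-LAG-3 mice (median 46.4). The anti-LAG-3 range enclosed the untreated one. The means were 51.6 ± 8.84 and 47.9 ± 13.0 CPM (n = 5 and n = 6, SD), which gave a log2 change of -0.17 (SE 0.19, 95% interval -0.57 to 0.22). Of its 50-base stretches, 8.44% also occur in the antisense gene Gm44876, which had 1 read in all. The log2 fold change was -0.042 without anti-LAG-3 replicate 6, -0.37 within primer barcode 9 (unadjusted p = 0.119 in edgeR) and -0.0050 with the title number as a covariate.

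The IL-6 receptor chains had the fewest reads of the receptor genes, and Il6ra was near the limit of detection. Il6st (gp130, chromosome 13 from 112464070 to 112510086, plus strand) had 16, 5, 18, 1 and 3 reads in untreated replicates 1 to 5, and 27, 30, 5, 25, 4 and 7 reads in anti-LAG-3 replicates 6 to 11. In CPM these were 2.56 to 16.5 in untreated mice and 11.8 to 31.0 in anti-LAG-3 mice, with medians of 13.1 and 17.1. The 2 lowest libraries were untreated (replicates 4 and 5), the 3 highest were anti-LAG-3 (replicates 6, 9 and 11), and the rest overlapped. The means were 10.8 ± 6.32 and 19.4 ± 7.46 CPM (n = 5 and n = 6, SD).

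In the fit without a filter on low counts, which took in 24024 genes and found 1095 (4.56%) at an unadjusted p under 0.05, the Il6st log2 fold change was 0.80 (SE 0.32, 95% interval 0.17 to 1.43). The unadjusted p was 0.0124 in edgeR and the adjusted p 0.722. With each library left out of this fit in turn, an alternative chosen after the data were seen, the value was 0.62 to 1.03 and the unadjusted p in edgeR 0.00651 to 0.075, under 0.05 in 7 of 11 cases. The p was above 0.05 without untreated replicate 4 (0.0502) or 5 (0.0526), or anti-LAG-3 replicate 6 (0.0534) or 9 (0.075). Il6st passed the filter in some other fits. The log2 fold change was 0.79 with a filter at 5 counts (unadjusted p = 0.0227 in edgeR). Within primer barcode 9 it was 0.86 (unadjusted p = 0.0243 in edgeR, adjusted p = 0.986). In 6 main fits with a library left out it was 0.64 to 0.86 (unadjusted p = 0.0144 to 0.0645 in edgeR). Il6st is also expressed by cells other than T cells. The median myeloid marker sum was also higher in anti-LAG-3 mice (63.1 CPM, against 35.9 untreated), as was median Il6st (17.1 against 13.1 CPM). In anti-LAG-3 replicates 6 to 11 Il6st was 25.6, 16.5, 11.8, 31.0, 13.5 and 17.6 CPM. The sum in the same libraries was 47.5, 85.7, 70.8, 24.8, 162 and 55.5 CPM. Untreated replicates 1 to 5 had 13.1, 16.5, 16.02, 2.56 and 5.63 CPM of Il6st. Their sums were 50.1, 23.1, 32.04, 35.9 and 56.3 CPM. Within each group the library with the highest Il6st level had the lowest sum. The part of myeloid RNA in the Il6st difference was not tested.

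Il6ra (chromosome 3 from 89864059 to 89913196, minus strand) had 3, 4, 5, 0 and 0 reads in untreated replicates 1 to 5 and 1 to 6 reads in anti-LAG-3 mice. A count of 0 still allows up to 7.68 CPM in untreated replicate 4 and 5.63 CPM in untreated replicate 5, at 3 counts, for counting error only. The log2 fold change without a filter was 0.15 (SE 0.65, 95% interval -1.13 to 1.42), so that neither a halving nor a doubling of Il6ra was detectable at this depth. The log2 ratio of Il6ra to Il6st was -1.19 ± 0.58 and -1.69 ± 0.72 (n = 5 and n = 6, SD), so the gp130 transcript was the more abundant of the pair in both groups. With 2 untreated libraries at 0 Il6ra reads, the difference between the groups rests on the prior count, and it was -0.50 at a prior count of 2 and -0.19 at 0.5, or -0.77 to -0.27 with a library left out.

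Ifngr1, the ligand-binding chain of the interferon gamma receptor, lies on chromosome 10 from 19591949 to 19610229 (plus strand). It had 593, 646, 606, 630 and 602 CPM in untreated replicates 1 to 5 and ran from 459 to 724 CPM in anti-LAG-3 mice (median 612). The means were 615 ± 21.9 and 602 ± 102 CPM (n = 5 and n = 6, SD), which gave a log2 change of -0.020 (SE 0.093, 95% interval -0.21 to 0.17). The values lay closer together in untreated mice. All 5 untreated libraries fell within the anti-LAG-3 range, with 3 anti-LAG-3 libraries above them (replicates 7, 8 and 9 with 663, 724 and 678 CPM) and 3 below (replicates 6, 10 and 11 with 526, 561 and 459 CPM). Ifngr2, which encodes the partner chain, had 0 to 23 reads in a library and was not tested. Ifng, the ligand, which T cells make themselves, had 153 ± 20.9 CPM (n = 5, SD) against 154 ± 21.7 (n = 6, SD), which gave a log2 change of 0.039 (SE 0.12).

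How far the libraries of a group differ beyond counting error can be read from the variance of the CPM values over that expected from counting alone. For Ifngr1 this ratio was 0.408 in untreated and 9.71 in anti-LAG-3 mice, which corresponds to coefficients of variation (CV, the SD as a share of the mean) of 3.56% and 17.0%, where counting gives 5.58% and 5.46%. The 2 chains of the IL-2 and IL-15 receptors went the other way, with ratios of 6.38 and 1.25 for Il2rg and 9.40 and 2.69 for Il2rb. Untreated replicate 2, the library of primer barcode 10, was an extreme of its group for both. It had 781 CPM of Il2rg, with the other untreated libraries at 546 to 659 CPM. For Il2rb it had 310 CPM, with the others at 390 to 543 CPM. Il7r, Il2ra, Il21r and Il18r1 had ratios between 2.19 and 4.22 in both groups, and Il4ra had 0.808 and 1.83, near counting error. These differences in spread between groups were not tested. The biological CV that edgeR fitted to each gene over both groups was 0.089 to 0.14 for the 8 receptor genes, above the median of 0.12 for all tested genes in 4 of the 8.

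**Figure D4:**
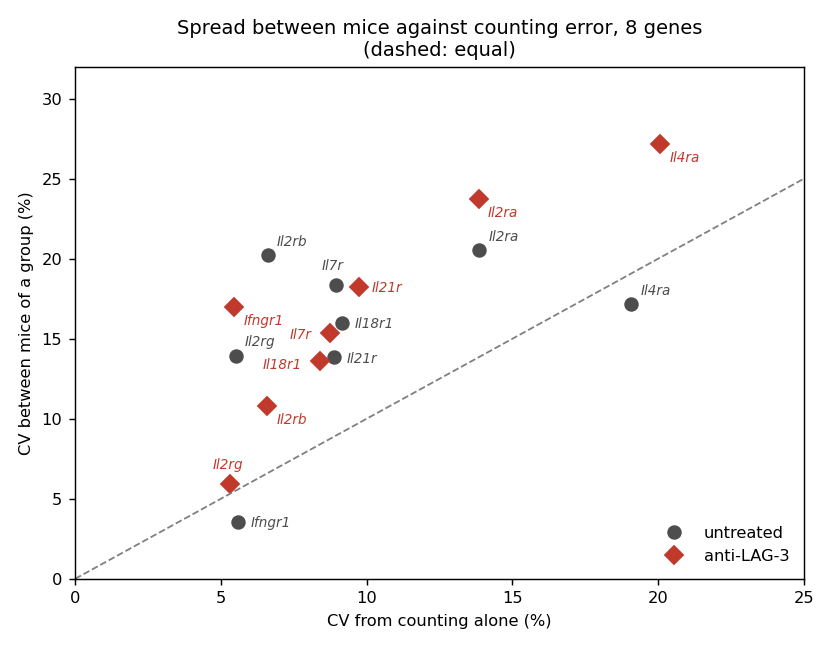
CV between the mice of a group (vertical axis, percent) against the CV that counting alone would give (horizontal axis, percent) for the 8 tested receptor genes, with grey circles for untreated and red diamonds for anti-LAG-3. The dashed line marks equal values. Most points lie above it, Ifngr1 moves from 3.56% in untreated to 17.0% in anti-LAG-3 mice, and Il4ra lies closest to the right, where counting gives about 19.1% and 20.1%.

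The other genes of these pathways were measured as 6 lists with 63 genes in all, of which 40 were tested. None had a small adjusted p in edgeR (smallest 0.999), 19 were higher and 21 lower in anti-LAG-3 mice, and at an unadjusted p under 0.05 there was 1 higher and 3 lower gene, beside the 1.74% and 1.99% of all tested genes given above. Of the 24 other receptor chains, 11 were tested, with 4 log2 fold changes above and 7 below 0 and a median of -0.15. Il3ra, the IL-3 receptor chain, had 42.3 ± 6.64 CPM (n = 5, SD) without treatment against 28.8 ± 8.64 (n = 6, SD) after LAG-3 blockade, which gave a log2 change of -0.48 (SE 0.21, unadjusted p = 0.0326 in edgeR). That p was 0.0573 with the primer barcode as covariate, 0.164 within barcode 9 and 0.00425 to 0.0893 with a library left out, under 0.05 in 5 of 11 cases and highest without anti-LAG-3 replicate 6. Crlf2, the private chain for TSLP that pairs with the IL-7 receptor chain, gave a log2 change of -0.26 (SE 0.14), and Il17ra one of -0.28 (SE 0.20). With a library left out, Crlf2 ran from -0.39 without anti-LAG-3 replicate 7 (unadjusted p = 0.0111 in edgeR) to -0.17 without anti-LAG-3 replicate 9, and Il17ra from -0.44 without anti-LAG-3 replicate 6 (unadjusted p = 0.0393 in edgeR) to -0.16 without untreated replicate 5. Il17ra was -0.14 within primer barcode 9.

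All 11 JAK kinase and STAT genes were tested, and 8 of them had a log2 fold change below 0. Stat4, the factor downstream of IL-12, had 258 ± 28.2 CPM (n = 5, SD) without treatment against 218 ± 19.4 (n = 6, SD) after LAG-3 blockade, which gave a log2 change of -0.24 (SE 0.099, unadjusted p = 0.0225 in edgeR). Stat5b, which carries signals of the common gamma chain receptors, had 51.3 ± 9.83 and 36.7 ± 7.36 CPM (n = 5 and n = 6, SD), which gave a log2 change of -0.44 (SE 0.18, unadjusted p = 0.0227 in edgeR). For Jak1, the kinase bound to many of these receptors, the log2 fold change was -0.16 (SE 0.080, unadjusted p = 0.0636 in edgeR), and with a library left out it ran from -0.19 without untreated replicate 2 (unadjusted p = 0.0299 in edgeR) to -0.11 without untreated replicate 1 (unadjusted p = 0.204 in edgeR). It was -0.22 within primer barcode 9 (unadjusted p = 0.0382 in edgeR). The adjusted p was 0.999 for each of them. Within primer barcode 9 the unadjusted p in edgeR was 0.0884 for Stat4 and 0.0714 for Stat5b. With a library left out it was 0.00819 to 0.0744 for Stat4, highest without untreated replicate 4, and 0.0128 to 0.0652 for Stat5b, highest without untreated replicate 5.

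Of the 7 inhibitors of cytokine receptor signaling, 6 were tested, and all 6 had a log2 fold change above 0, between 0.0097 for Socs3 and 0.20 for the phosphatase gene Ptpn6, with none at an unadjusted p under 0.05. The Ptpn6 value was 0.11 without anti-LAG-3 replicate 10 and 0.083 within primer barcode 9. Cish, which is induced through STAT5 and dampens it, had 101 ± 13.4 and 110 ± 21.5 CPM (n = 5 and n = 6, SD), and its log2 fold change of 0.082 turned to -0.052 within primer barcode 9. The log2 fold change of the phosphatase gene Ptpn2 was 0.072 (SE 0.14) and turned to -0.00060 without untreated replicate 1 and to -0.0025 without anti-LAG-3 replicate 7. Within primer barcode 9 it was 0.20.

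Among the 6 genes that these cytokines are known to induce, 2 had a log2 fold change above 0 and 4 below. Myc, a growth regulator, had 42.9 ± 11.0 CPM (n = 5, SD) without treatment against 60.8 ± 12.5 (n = 6, SD) after LAG-3 blockade, which gave a log2 change of 0.51 (SE 0.19, unadjusted p = 0.0137 in edgeR, adjusted p = 0.999). With a library left out, the unadjusted p of Myc in edgeR was 0.00544 to 0.103, highest without untreated replicate 3, where the log2 fold change was 0.32. Pim1, a kinase gene induced by STAT factors, gave a log2 change of -0.10 (SE 0.089), and Mcl1, a survival gene, one of -0.17 (SE 0.16). With a library left out, Pim1 was -0.17 without untreated replicate 2 or anti-LAG-3 replicate 9, and Mcl1 was -0.087 without untreated replicate 5 and -0.27 without untreated replicate 4 or anti-LAG-3 replicate 6. Within primer barcode 9, Pim1 was -0.16 and Mcl1 was -0.31. Of the 10 ligand genes listed, 9 were matched in the table, and Ifng was the one with enough reads to be tested.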

How the data were processed

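Bulk RNA-seq was measured in sorted CD8 T cells of 11 mice, with 1 library per mouse, made by reverse transcription on beads, template switching and PCR without molecular identifiers. The authors trimmed reads with Cutadapt (version 4.1 per the labels), mapped them to the reference RNA of GRCm38 with Bowtie2 (version 2.4.5 per the labels), and deposited raw counts per gene symbol. The paper states other versions of these tools. The treatment of reads shared between genes and of strand is not given in the sources used here. Groups were taken from the treatment label, and the 11 count columns were matched to libraries by title.

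Genes were kept with filterByExpr (10 counts at the median depth, which is 17.7 CPM of the total counts, in 5 or more libraries, and 15 counts in all), normalized by TMM and tested with the quasi-likelihood test of edgeR 4.0.16 in R 4.3.3, with Benjamini-Hochberg adjustment over all 6949 tested genes and a threshold of 0.05. Unadjusted p-values come from the same fit. DESeq2 1.42.0 and limma 3.58.1 were alternatives. The test was run on simulated counts beforehand. All 55 pairs of libraries differed by more than sampling noise (chi-square over its degrees of freedom 1.41 to 2.66), so none was counted as a copy. At 3 counts, the limit of detection was 1.65 CPM in the deepest library and 10.1 CPM in the shallowest, which covers counting error only. Ratios within a library used a prior count of 2. Coordinates and transcript lengths are from GENCODE M21 (GRCm38). The named pathway genes were up to 3 of each list with the smallest p. Of the markers, those of the sort and the one of each list with the most reads were named, and Cd4, Foxp3, Ncr1, Il18rap, Il15ra, Ifngr2, Il1rl1 and Socs3 were added after their values were seen. Some markers of the sort and of other cells are not reported here. The receptor genes and the lists were chosen with earlier results of these data known. Alternatives covered the test, the normalization, the filter, the primer barcode, the title number and leaving out each library.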

Additional observations from a re-analysis of the deposited data

Results flagged for a closer look

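Single libraries stood apart from the others of their group, by Dixon's criterion on log2 CPM, in 6 of 66 sets of a gene and a group, where chance alone gives about 3.3. Il7r had 8.390 on the log2 scale (333 CPM, 101 reads) in untreated replicate 2, with the other untreated libraries at 221 to 246 CPM. Il18r1 had 7.335 (159 CPM, 62 reads) in untreated replicate 4, with the others at 232 to 244 CPM. Pim1 had 9.004 (511 CPM) in untreated replicate 2, with the others at 655 to 708 CPM, and Pdcd1 had 9.215 (592 CPM) in untreated replicate 4, with the others at 719 to 767 CPM. In anti-LAG-3 mice, Jak1 had 8.652 (399.8 CPM) in replicate 9, with the others at 462 to 482 CPM, and Ptpn6 had 8.413 (338 CPM) in replicate 10, with the others at 208 to 230 CPM. Untreated replicate 2, the library of primer barcode 10, was one of the shallowest, with 317449 counts, and gave 2 of the 6 values. Untreated replicate 4 gave 2 more.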

How the results depend on the processing

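No paired analysis was run, because the sources used here give no pairing of mice between the 2 groups. Calls at an adjusted p of 0.05 numbered 0 in every alternative except without a filter on low counts (3 of 24024 genes) and when a library was left out (0 to 2, the 2 without anti-LAG-3 replicate 7), and with the title number as covariate, chosen after seeing the data, where 16 of 6949 genes passed and the anti-LAG-3 side rests on replicate 10 alone. Genes at an unadjusted p under 0.05 numbered 163 with DESeq2, 1095 without a filter, 425 of 9071 within primer barcode 9, 485 with the title number, and 225 to 340 with a library left out. Of the 8 receptor genes tested in the main comparison, 1 had an unadjusted p under 0.05 in the likelihood ratio test, in DESeq2 and within primer barcode 9, and 0 to 2 with a library left out, the 0 without untreated replicate 4 or anti-LAG-3 replicate 6. Of the 8, those with a log2 fold change above 0 numbered 4 with the primer barcode as covariate, 5 within barcode 9, and 2 to 4 with a library left out. Il7r turned to 0.00021 in limma-voom, 0.050 with the covariate and 0.067 within barcode 9, Ifngr1 to 0.0046 with the covariate and 0.048 within barcode 9, and within barcode 9 Il2rb turned to 0.0085 and Cish to -0.052. With the title number as covariate Il2ra turned to 0.43. Of 94 values with a library left out, 11 changed sign, within Il7r (-0.11 to 0.056), Il2ra (-0.12 to 0.063), Il2rb (-0.14 to 0.029), Il2rg (-0.0069 to 0.11) and Ifngr1 (-0.075 to 0.034). Among pathway genes this held for Cish (-0.027 to 0.18), Ptpn2 (-0.0025 to 0.12), Irak1 (-0.28 to 0.079) and Ifng (-0.041 to 0.097). The cause was not tested. The 1 library of primer barcode 10 adds nothing to the fit with the covariate. The smallest adjusted p of a receptor gene over all settings was 0.671, for Il21r without anti-LAG-3 replicate 7. Without a filter and with a library left out, which was chosen after seeing the data, Il6ra ran from -0.13 to 0.62 and changed sign in 5 of 11 cases, to -0.027, -0.055 and -0.13 without untreated replicates 1, 4 and 5 and to -0.096 and -0.066 without anti-LAG-3 replicates 6 and 10. Depth limits Il6ra, Il6st and, less, Il4ra.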
